A study of Mus musculus with 4 samples.

Results

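The cytosolic ribosomal proteins were examined as a group of 63 genes among the 19938 genes that the array platform names with a single symbol. Members were the genes whose only platform symbol begins with Rpl or Rps and a digit, together with Rplp0, Rplp1, Rplp2 and Rpsa, without pseudogenes and without the S6 kinases of the Rps6k families. They comprised 33 core proteins of the large subunit, 21 core proteins of the small subunit, 7 paralogs (Rpl10l, Rpl32l, Rpl39l, Rpl3l, Rpl7l1, Rps27l and Rps4l) and 2 genes with a ribosomal protein name that are not structural proteins (Rps19bp1 and Rps23rg1). A further 20 ribosomal protein genes, Rpl3, Rpl11 and Rps24 among them, shared their probe sets with other symbols and were not analysed here.

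RNA was measured in cells grown from the bone marrow of C57BL/6J mice for 7 days in RPMI with serum. One group grew with GM-CSF and was sorted as CD45+, MHCII+, CD8a- and F4/80+, and the submitters call these cells M1. The other grew with M-CSF, supplied as 20% supernatant of L929 fibroblasts, was sorted as CD45+, F4/80+ and CD11b+, and is called M2. No genetic change or further agent is labelled in either group, and each group had 2 arrays, 4 in all. The growth factor, the fibroblast supernatant and the sort gate differed together and cannot be told apart. Nothing in the labels tells whether a group's arrays came from different cultures or mice, and the p-values below reflect only the spread among these arrays. That spread may be technical, though the GM-CSF pair also differed in its Xist signal, as given below. Values are log2 levels on a common scale of 1.551 to 13.947, where 1 unit is a doubling.

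The cytosolic ribosome reads messenger RNA in every cell. Its small subunit decodes the message, its large subunit joins the amino acids, and each carries many proteins on a scaffold of ribosomal RNA that are needed in matched amounts. Their messenger RNAs are among the most abundant in growing cells, and many begin with a terminal oligopyrimidine tract, a C at the cap followed by a run of C or T, through which mTOR signalling and the protein Larp1 control their translation. Macrophages in culture receive growth signals from GM-CSF or M-CSF, and both receptors feed into mTOR and Myc, which drive ribosome production.

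The start sites of 6 members, called and not called, are shown because the tract lies there. RefSeq promoter windows (GRCm38.p6, 250 bases before to 50 after each annotated start) were matched for 51 of the 63 members. Taking the first transcribed base as C followed by at least 4 pyrimidines, 10 of the 51 (19.6%) held the tract exactly at an annotated start, against 3.01% of the 27025 genes in the promoter table. The 6 lines below give 40 bases before and 15 from the start, 5′ to 3′ on the coding strand, with the tract in capitals. Rpl38, Rps18, Rps21 and Rplp2 were lower in GM-CSF cells, and Rps6 and Rpl28 did not pass the test.
Rpl38, chr11:114668540-114668594, plus strand: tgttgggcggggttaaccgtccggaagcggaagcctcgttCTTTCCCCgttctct
Rps18, chr17:33955651-33955705, minus strand: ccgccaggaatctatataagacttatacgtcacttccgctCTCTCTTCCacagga
Rps21, chr2:180257339-180257393, plus strand: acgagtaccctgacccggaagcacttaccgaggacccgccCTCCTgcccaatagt
Rplp2, chr7:141447611-141447665, plus strand: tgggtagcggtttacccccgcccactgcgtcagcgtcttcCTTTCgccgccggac
Rps6, chr4:86857353-86857407, minus strand: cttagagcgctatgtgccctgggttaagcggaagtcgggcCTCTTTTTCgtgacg
Rpl28, chr7:4792925-4792979, plus strand: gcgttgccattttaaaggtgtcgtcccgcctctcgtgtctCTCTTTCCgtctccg

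Among members with a window, the tract was found in 4 of the 18 that were lower in GM-CSF cells and in 6 of the 31 tested members that were not called. The letters CCGGAAG, the core of sites for ETS factors such as GABP, were searched on both strands over the whole window. They occurred in 10 of the 18 members that were lower and in 8 of the 31 that were not called, against 9.93% of all genes in the table and 16.9% of the genes tested here. Of all 51 members with a window, 19 (37.3%) held these letters. Read on the opposite strand they begin with C and pyrimidines, so such a match can overlap the tract. These matches describe the windows only.

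Both cell populations had signal for their labelled type. All 8 macrophage marker genes lay above background in both groups, where background is the 95th percentile of 1027 olfactory receptor genes (5.90). Of the 8, 0 passed the test, against 10.7% of all genes tested in either direction. Cd68 passed with trended and robust variances (0.35, limma adjusted p = 0.0385). Among them Csf1r, Cd68 and Lyz2 were not used in the sort, while Adgre1, Itgam and Ptprc encode sorted antigens. GM-CSF replicate 1 stood apart from the other arrays in its Xist signal. This RNA, which coats an inactivated X chromosome, read 11.58 there, 4.93 on the other GM-CSF array, and 4.53 and 4.80 on the M-CSF arrays. The GM-CSF pair may thus differ in the sex of the donor mice, and the part of this in its spread was not tested. Over the 14995 genes tested, the difference between arrays had an SD of 0.325 for the GM-CSF pair and 0.180 for the M-CSF pair.

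Many ribosomal protein messages, of both subunits, were lower in GM-CSF than in M-CSF cells, each by less than 2-fold. Of the 61 members that passed the filter on dim genes, 24 were lower, 0 higher and 37 did not pass (limma, Benjamini-Hochberg adjusted p under 0.05 over all 14995 genes). Among all genes tested, 4.53% were lower and 6.18% higher. At an unadjusted p under 0.05, 43 members had a difference and 0 of these were higher. Over all 14995 genes, 3821 had one and 1927 of these were higher. The difference was below 0 in 59 of the 61, against 52.4% of all genes, and its median was -0.40, a 1.32-fold lower level, against -0.01 over all genes. In 54 of the 61 both GM-CSF arrays lay below both M-CSF arrays, which held for 29.2% of all genes. A single member, Rpl7l1, had both GM-CSF arrays above, against 26.3% of all genes, and 6 overlapped. The members were chosen with earlier results of these data known, so these counts describe the group.

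Relative to each gene's mean over the 4 arrays, the median member stood at -0.15 and -0.28 on the arrays of GM-CSF replicates 1 and 2 and at 0.19 on both M-CSF arrays. All genes together had medians between -0.02 and 0.01 on the same measure. The 2 GM-CSF arrays thus lay on one side and the M-CSF arrays, which almost coincided, on the other. GM-CSF replicate 1 was the higher of its pair for 46 of the 61 members, against 6591 of all 14995 genes. The median of replicate 1 minus replicate 2 was 0.11 over the members and -0.03 over all genes. The largest gap of a member within that pair was 0.56, in Rps4l. The difference between groups exceeded the gap between the GM-CSF arrays in 50 of the 61 members, against 8165 of all 14995 genes. In sorted bulk cells, a lower level of a message and fewer cells that carry it cannot be told apart, and the authors' normalization brings all arrays to one distribution, so a change in total RNA per cell is not visible.

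**Figure D1:**
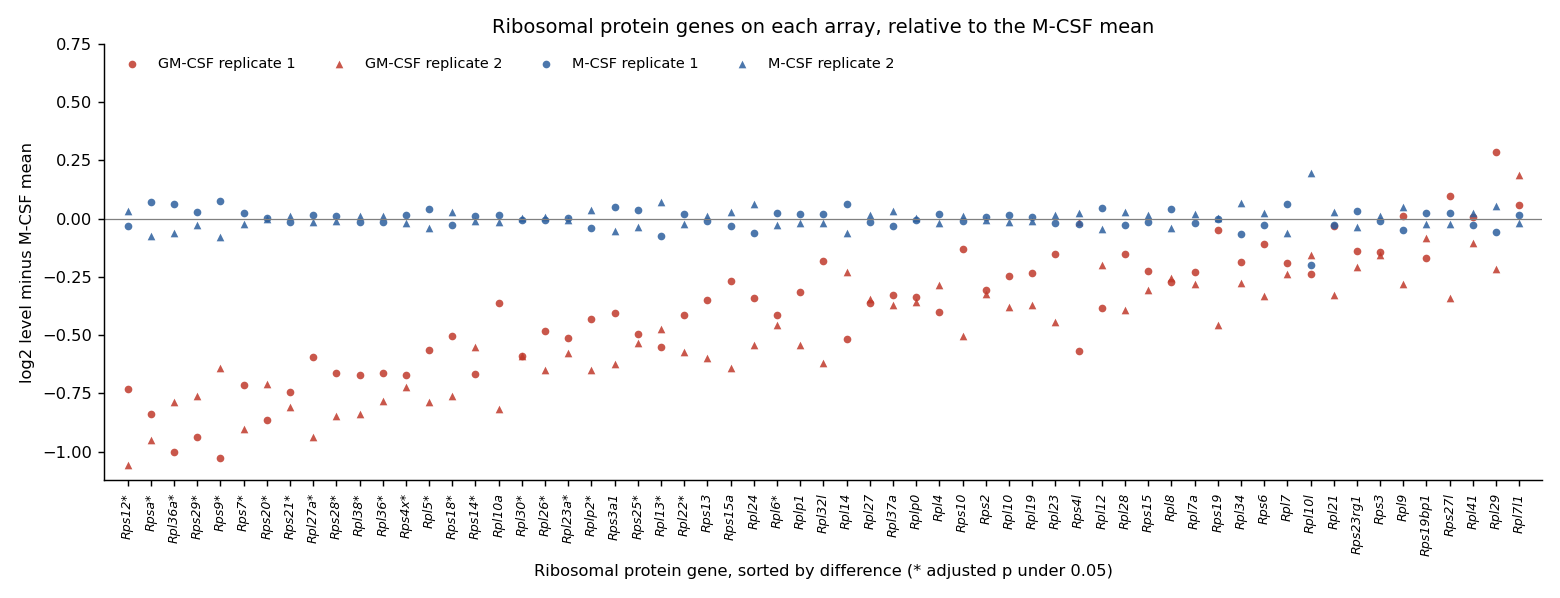
Each column is 1 of the 61 tested ribosomal protein genes, sorted by difference, and the vertical axis is the log2 level on an array minus the mean of the 2 M-CSF arrays. Red points are GM-CSF arrays and blue points M-CSF arrays, with circles for replicate 1 and triangles for replicate 2. The red points lie below both blue points in 54 of the 61 columns, and an asterisk marks the 24 genes with an adjusted p under 0.05.

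With an M-CSF array left out, the fit takes its spread from the GM-CSF pair alone, the wider of the 2 pairs, and the lone M-CSF array is assumed to vary like it. None of the 24 then passed, at limma adjusted p from 0.111 to 0.319 without M-CSF replicate 1 and from 0.0853 to 0.286 without M-CSF replicate 2. In those fits the 24 differences still ran from -0.93 to -0.41 and from -0.97 to -0.44, and 27 and 25 members were lower at an unadjusted p under 0.05, while only 0.433% of all genes passed as lower in each. Without GM-CSF replicate 1 or 2 all 24 remained called and 10 and 4 others joined them, in fits that take their spread from the M-CSF pair alone.

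Small subunit proteins held most of the largest differences. Of the 21 core members of the small subunit, 12 were lower and 9 did not pass, with a median difference of -0.61. In all 21 the GM-CSF arrays lay below the M-CSF arrays. Of the 33 core members of the large subunit, 12 were lower and 21 did not pass, with a median of -0.35. In 30 of these 33 the GM-CSF arrays lay below. Among all genes tested 4.53% were lower, and 29.2% had both GM-CSF arrays below both M-CSF arrays. The difference between the subunits was not tested.

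Rps12, a small subunit protein of the head, read 9.70 and 9.37 with GM-CSF against 10.40 and 10.46 with M-CSF. Its level was 1.86-fold lower in GM-CSF cells (log2 difference -0.89 ± 0.14 SE, n = 2 per group, limma adjusted p = 0.0121). Rpsa, which also gives rise to a laminin-binding surface protein, read 10.43 and 10.31 against 11.34 and 11.19. The groups were clearly apart, and Rpsa was 1.86-fold lower (-0.89 ± 0.11, adjusted p = 0.00625). Rps29, a zinc-binding protein whose loss impairs red cell formation, read 9.44 and 9.62 against 10.40 and 10.35. It was 1.80-fold lower (-0.85 ± 0.11, adjusted p = 0.00734). Here GM-CSF replicate 2 was the higher of its pair, unlike in most members.

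Rps9, which lines the entry of the message into the ribosome, read 10.11 and 10.50 with GM-CSF against 11.22 and 11.07 with M-CSF. It was 1.78-fold lower (-0.84 ± 0.16), and its GM-CSF arrays were 0.39 apart. Rps7, which can also bind Mdm2, read 10.81 and 10.62 against 11.55 and 11.50 and was 1.75-fold lower (-0.81 ± 0.12). Rps20, a head protein measured by 1 probe set, read 11.28 and 11.43 against 12.14 in both M-CSF arrays and was 1.72-fold lower (-0.79 ± 0.11). Rps21 and Rps28, among the smallest proteins of the subunit, were lower in the same way. Rps21 read 8.02 and 7.95 against 8.75 and 8.78, and Rps28 read 10.48 and 10.29 against 11.15 and 11.13, with differences of -0.78 ± 0.10 and -0.76 ± 0.11.

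The remaining small subunit members that passed had smaller differences. They were Rps4x (-0.70 ± 0.10), Rps18 (-0.63 ± 0.13), Rps14 (-0.61 ± 0.11), whose human counterpart is lost in a form of myelodysplasia, and Rps25 (-0.51 ± 0.10). Rps3a1 missed the threshold at an adjusted p of 0.0509 (-0.51 ± 0.12) and passed under 6 alternatives with all arrays kept (0.0383 to 0.0492). Rps6, the classic substrate of S6 kinase and one of the members with a tract shown above, read 13.05 and 12.82 against 13.13 and 13.18. Its GM-CSF arrays were lower, but the difference of -0.22 ± 0.12 did not pass (adjusted p = 0.323). Rps3, which also has a role in DNA repair, had the smallest difference of the core small subunit (-0.15 ± 0.10).

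In the large subunit Rpl36a led, reading 10.75 and 10.97 with GM-CSF against 11.82 and 11.69 with M-CSF. It was 1.86-fold lower (-0.89 ± 0.12, limma adjusted p = 0.00818). Rpl27a read 10.55 and 10.21 against 11.16 and 11.13 and was 1.70-fold lower (-0.77 ± 0.14). Rpl38, which mouse mutants tie to translation of Hox messages, read 11.78 and 11.62 against 12.44 and 12.47 and was 1.69-fold lower (-0.76 ± 0.11). Rpl5, which carries the 5S ribosomal RNA into the large subunit and restrains Mdm2 when assembly fails, read 10.94 and 10.72 against 11.55 and 11.47. It was 1.60-fold lower (-0.68 ± 0.12, adjusted p = 0.0212), with the groups well separated.

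Other large subunit members that passed were Rpl36 (-0.72), Rpl30 (-0.59), Rpl26 (-0.57), Rpl23a (-0.54), Rplp2 (-0.54), Rpl13 (-0.51), Rpl22 (-0.49) and Rpl6 (-0.44). With all 4 arrays kept, the calls of Rpl6, Rpl13, Rpl22 and Rplp2 were lost without the filter (limma adjusted p = 0.0731, 0.0553, 0.0614 and 0.0577) and those of Rpl6, Rpl22 and Rplp2 with a replicate block (0.0685, 0.0514 and 0.054). The call of Rpl6 was also lost after quantile normalization (0.0546) and with arrays centred on their medians (0.0622). Rpl22, which mice can lose with defects mainly in T cell development, read 7.45 and 7.30 against 7.89 and 7.85. Rpl10a had a difference of -0.59 ± 0.17, as large as that of called genes, but its GM-CSF arrays were 0.46 apart and it did not pass (adjusted p = 0.0784). Rpl10, the protein whose loading completes the large subunit, read 12.88 and 12.75 against 13.14 and 13.11 and did not pass (-0.31 ± 0.11).

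The 3 proteins of the P stalk, the flexible arm that recruits translation factors, all had lower GM-CSF values. Rplp0, the base of the stalk, read 12.42 and 12.40 against 12.76 and 12.77 (-0.35 ± 0.10, adjusted p = 0.0882). Rplp1 read 12.22 and 11.99 against 12.55 and 12.51 (-0.43 ± 0.12, adjusted p = 0.0803). Rplp2 read 7.47 and 7.25 against 7.86 and 7.94 and was the one that passed (-0.54 ± 0.12, adjusted p = 0.041). Their groups did not overlap, and with trended and robust variances Rplp0 and Rplp1 passed as well (0.0358 and 0.0377).

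A few core members barely differed. Rpl41, the shortest ribosomal protein, read 12.59 and 12.48 with GM-CSF against 12.56 and 12.61 with M-CSF, with a difference of -0.05 ± 0.11 and overlapping groups. The sign turned for Rpl41 after quantile normalization (0.02) and without GM-CSF replicate 2 (0.0083). Rpl29, a heparin-binding protein of the large subunit, read 10.96 and 10.45 against 10.62 and 10.73. The M-CSF values lay between the GM-CSF ones, and the difference of 0.04 ± 0.18 took its sign from the array kept, at -0.22 without GM-CSF replicate 1 and -0.02 without M-CSF replicate 1, and was -0.0075 with arrays centred on the genes tested. Rpl9 also overlapped (-0.13 ± 0.13) and turned to 0.01 without GM-CSF replicate 2.

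Rpl10, Rpl36a and Rps4x lie on the X chromosome, and GM-CSF replicate 1 was the array with Xist signal. The gap between the GM-CSF arrays was 0.13, -0.22 and 0.05 in these genes, within the range of the other members. Rpl36a and Rps4x passed the test and Rpl10 did not. The chromosome is that of the gene. Where the probe sets used lie in the genome was not checked, so a value may come from a copy elsewhere.

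None of the paralogs passed the test. Of the 5 that passed the filter on dim genes, 0 were lower and 0 higher by limma, against 4.53% and 6.18% of all genes tested. At such shares 0 of 5 says little about paralogs. One, Rpl32l, had an unadjusted p under 0.05. Rps27l, a p53-responsive paralog of Rps27, read 10.39 and 9.95 with GM-CSF against 10.32 and 10.27 with M-CSF, so its groups overlapped (-0.12 ± 0.16). The direction of Rps27l turned to 0.10 without GM-CSF replicate 2. Rpl7l1, a paralog of Rpl7 that acts in ribosome assembly, read 10.04 and 10.16 against 9.99 and 9.96 (0.12 ± 0.11, adjusted p = 0.559). Its parent Rpl7 read 10.13 and 10.08 against 10.38 and 10.25 (-0.22 ± 0.11, adjusted p = 0.286). Whether paralogs and parents differ in their change was not tested.

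The paralogs known from testis and muscle were at background in both groups. Rpl10l, a testis paralog of Rpl10, read 5.18 and 5.27 against 5.22 and 5.62. Rpl39l, another testis paralog, read 4.25 and 4.33 against 4.26 and 4.40, and Rpl3l, a muscle paralog, 4.72 and 4.62 against 4.31 and 4.57. Rpl39l and Rpl3l were the 2 members that failed the filter on dim genes. Of the remaining 2 paralogs, named copies of Rpl32 and Rps4x, Rpl32l read 8.10 and 7.67 against 8.30 and 8.27 and Rps4l 6.44 and 6.99 against 6.98 and 7.03. Neither passed, and their probes may not part them from the parent genes. The non-structural genes Rps19bp1, a partner of Rps19 and Sirt1 (-0.13 ± 0.11), and Rps23rg1 (-0.17 ± 0.11) did not pass.

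Ribosomal protein genes have many processed pseudogenes, and the array names several probe sets for 39 of the 63 members. Where the probe sets lie was not checked, so any may sit at such a copy, also the single probe set of Rpl29. These 39 had 14 at most, in Rps12, and members had 219 in all. Probe sets of one gene can share probes, so they are not independent measurements. Some gave the same values, as all 3 of Rpl41 and several of Rps12 did, and such repeats enter the counts and spans below. The difference was below 0 in 215 of the 219, with both GM-CSF arrays below both M-CSF arrays in 198. The 4 exceptions were the single probe sets of Rpl29, Rpl3l and Rpl7l1 and 1 of the 2 of Rps4l. Within a gene the differences spanned a median of 0.06, and 24 of the 39 genes spanned less than 0.1. The 14 probe sets of Rps12 ran from -0.95 to -0.65, the 13 of Rpl23a from -0.54 to -0.47 and the 8 of Rpl9 from -0.16 to -0.10. Every probe set of Rps12 thus differed more than any of Rpl23a, and those more than any of Rpl9. Wider spans were found in Rps4l (0.32), Rpl13 (0.31), Rps12 (0.30), Rpl23 (0.30) and Rps21 (0.23).

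**Figure D2:**
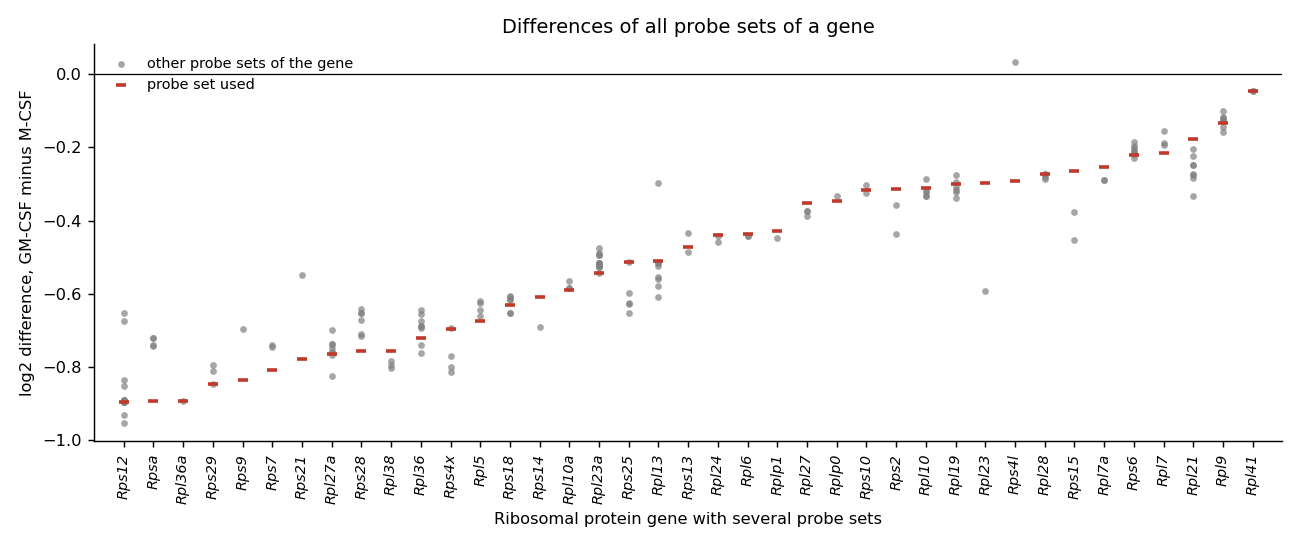
Each column is 1 of the 39 ribosomal protein genes with several probe sets, and the vertical axis is the log2 difference, GM-CSF minus M-CSF. Red bars mark the probe set used for the gene (the highest mean over the 4 arrays) and grey points its other probe sets. Most points of a gene lie close together, with a median span of 0.06, and all but 1 point lie below 0.

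The size of the difference varied with signal. The 13 members with a mean level of 12 or more had a median difference of -0.31 and 1 passed the test, Rpl38. The 12 members between 11 and 12 had a median of -0.53 and 7 passed, the 16 between 10 and 11 one of -0.48 with 8, the 11 between 8 and 10 one of -0.47 with 5, and the 9 below 8 one of -0.37 with 3. Other genes in the same level ranges had medians of -0.01, 0.01, -0.02, -0.04 and -0.01 in that order. Of them 2.36%, 5.73%, 8.68%, 6.76% and 3.03% were lower. Calls of other genes were thus also fewest above 12 and below 8. Genes of like brightness that are not members centred near 0 in each range. The normalization to one distribution itself draws such medians towards 0, so they are no independent comparison. The part of signal compression in the smaller differences above 12 was not tested.

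**Figure D3:**
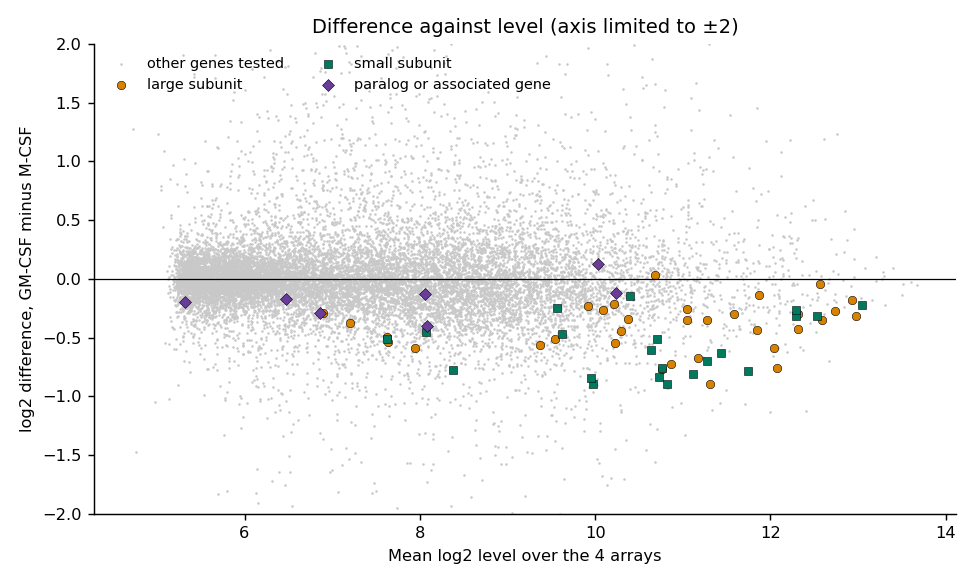
The horizontal axis is a gene's mean log2 level over the 4 arrays and the vertical axis its log2 difference, GM-CSF minus M-CSF, limited to ±2 so that genes with larger differences fall outside. Grey points are other genes tested, orange circles core large subunit genes, green squares core small subunit genes and purple diamonds paralogs and associated genes. Grey points centre on 0 at all levels, while the 54 core members lie below 0 except for Rpl29 at 0.04.

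Genes that make ribosomes and feed them were examined next. Among 86 tested ribosome assembly factors, 10 were lower, 1 higher and 75 did not pass, with a median difference of -0.22 and 74 of 86 below 0. Over all genes tested, 4.53% were lower, 6.18% higher and 52.4% below 0. Nmd3, the adaptor that exports the large subunit from the nucleus and leaves when Rpl10 is loaded, read 8.61 and 8.81 with GM-CSF against 9.71 and 9.65 with M-CSF. It was 1.96-fold lower (-0.97 ± 0.12, limma adjusted p = 0.00516). Ncl, nucleolin, read 8.87 and 8.86 against 9.64 and 9.58 and was 1.68-fold lower (-0.74 ± 0.10), and Gnl3, nucleostemin, 1.61-fold (-0.69 ± 0.12). The other 7 that were lower were Nop58, Riok2, Wdr12, Brix1, Npm1, Gtpbp4 and Ddx18. Without the filter on dim genes 6 of the 10 passed, since Npm1, Brix1, Gtpbp4 and Ddx18 did not (limma adjusted p from 0.0532 to 0.0625). The last 3 also failed with the replicate block (0.0509 to 0.0585), Gtpbp4 and Ddx18 with arrays centred on their medians (0.0505 and 0.0524), and Ddx18 as the mean of its probe sets (0.141). Rcl1, an endonuclease of early processing, was the one that was higher (0.72 ± 0.16, adjusted p = 0.0411), and it lost its call without the filter and after quantile normalization (adjusted p = 0.0546 and 0.0584).

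Of 38 initiation factors, 2 were lower, a share near the 4.53% of all genes, and 36 did not pass, with a median of -0.20. Eif4a2, an RNA helicase of initiation, read 9.46 and 9.60 against 10.29 and 10.11 (-0.67 ± 0.12), and Eif3e, a subunit of the initiation complex eIF3, 9.41 and 9.52 against 10.14 and 9.91 (-0.56 ± 0.12). Eif3e lost its call without the filter and with the replicate block (adjusted p = 0.055 and 0.0531). Of 13 elongation and termination factors, Eef1b2 alone was lower, against 4.53% of all genes, with a median of -0.30 for the list. Eef1b2, which recharges the elongation factor with GTP, read 10.21 and 10.01 against 10.89 and 10.77 (-0.72 ± 0.12). A list of 16 non-ribosomal messages that carry the oligopyrimidine tract shares members with the lists above. In it Eef1b2, Eif3e and Npm1 were lower, against 4.53% of all genes, 13 did not pass and the median was -0.28. Without the filter Eef1b2 alone of these passed, since Npm1 (adjusted p = 0.0548) was lost with Eif3e. Fau, which encodes a small subunit protein under another name, did not pass (-0.13 ± 0.13) and read 0.0044 without GM-CSF replicate 2.

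The polymerase and signalling genes upstream of ribosome production mostly did not pass. None of 19 genes of RNA polymerase I and its factors passed by limma, against 10.7% of all genes tested in either direction. At an unadjusted p under 0.05, 3 were lower and 1 higher, and the median was -0.12. Taf1d passed with trended and robust variances (-0.43, adjusted p = 0.0483). Among 25 genes of growth signalling, 1 was lower, 1 higher and 23 did not pass, with a median of 0.01. These shares lie near the 4.53% lower and 6.18% higher of all genes. Sesn2, a leucine sensor that restrains mTOR, was lower (-0.70 ± 0.11) and Eif2ak4, the kinase that senses uncharged transfer RNA, was higher (0.52 ± 0.11). Pdcd4, an inhibitor of the Eif4a helicase, read 9.01 and 8.14 against 7.62 and 7.54 and did not pass (1.00 ± 0.27, adjusted p = 0.0702), but did with the replicate block and with arrays centred on their medians (0.0341 and 0.0428). Mtor read 8.19 and 8.30 against 8.25 and 8.23, with overlapping groups, and Larp1 differed by -0.12 ± 0.11. Of 17 ribosome quality control genes 0 passed by limma, against the same 10.7% of all genes. At an unadjusted p under 0.05, 2 were lower and 1 higher, and the median was -0.07. Ltn1, the ligase that marks stalled nascent chains, went from -0.35 to -0.76 and passed when all its probe sets were averaged (adjusted p = 0.0107). When an M-CSF array was left out, where the spread again comes from the GM-CSF pair alone, Nmd3, Ncl, Gnl3, Npm1, Rcl1, Eif4a2, Eif3e, Eef1b2, Sesn2 and Eif2ak4 did not pass. Their differences there were -0.45 (Eif3e) or further below 0 for the genes that were lower, and between 0.46 (Eif2ak4) and 0.74 (Rcl1) for the other two.

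**Figure D4:**
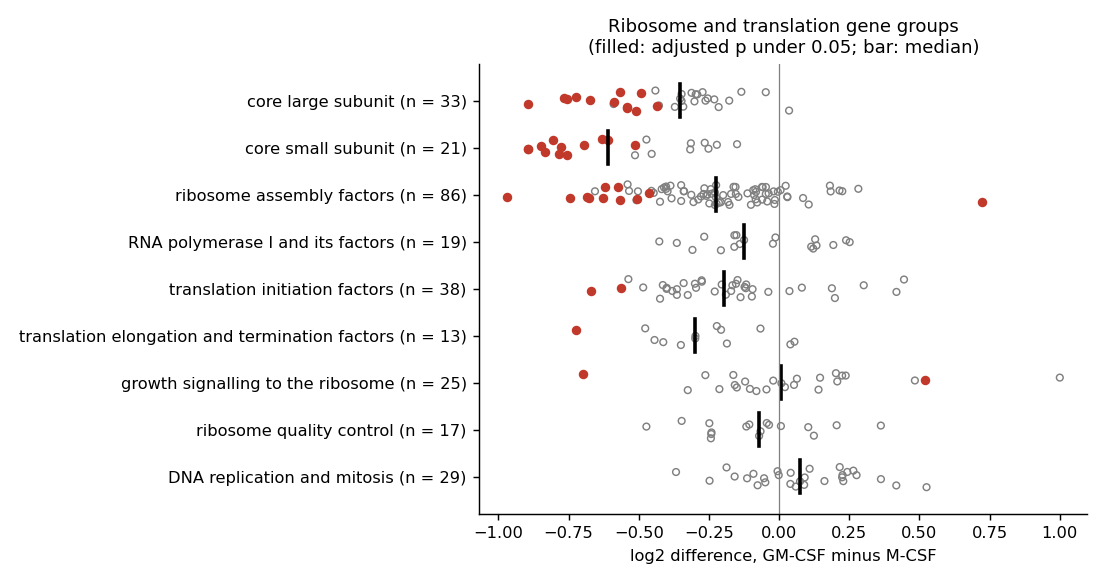
Each point is a gene and the horizontal axis is its log2 difference, GM-CSF minus M-CSF. Filled red points passed the test, open points did not, and the black bar is the median of the group, with the number tested after its name. The medians of the core small and large subunit stand at -0.61 and -0.35, those of the assembly, initiation and elongation groups between -0.30 and -0.20, and those of the other 4 groups between -0.12 and 0.07.

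Values for proliferation and for other cell types are given because they bear on sorted cultures. Of 29 DNA replication and mitosis genes 0 passed by limma, against 10.7% of all genes tested in either direction. At an unadjusted p under 0.05, 2 were higher and 1 lower, and the median was 0.07. Tyms passed with the replicate block (0.53, limma adjusted p = 0.0434). Of 5 dendritic cell markers, 3 lay above background with GM-CSF and 2 with M-CSF, with Flt3 and Xcr1 below it in both. Itgax and Ccr7 (1.16 ± 0.20) were higher with GM-CSF. Itgax read 10.72 and 10.05 against 6.01 and 5.71, and since its M-CSF mean of 5.86 lay below background its difference is not given. The mean level of this list was 6.91 and 6.84 against 5.76 and 5.82. Of 7 neutrophil markers, 4 lay above background with GM-CSF and 5 with M-CSF, and Ly6g was below it in both. Mpo was lower, at 5.65 and 5.68 against 6.31 and 6.30, with its GM-CSF values below background. The other 6 did not pass, and 3 of the 7 were below 0, with a median of 0.01. The GM-CSF arrays were far apart in S100a8 (8.54 and 7.04 against 6.96 and 6.84) and in Ngp (9.02 and 7.02 against 8.40 and 7.83). The mean level of that list was 6.85 and 6.17 against 6.35 in both M-CSF arrays. Of 5 fibroblast markers, 3 lay above background in each group, Pdgfra and Lum were below it in both and Dcn was higher (1.07 ± 0.25), a call lost in 4 alternatives with all arrays kept (no filter, quantile normalization, centring on the genes tested, and trended and robust variances, limma adjusted p from 0.0525 to 0.0787). Col1a1 (-0.29 ± 0.11) and Col1a2 (-0.16 ± 0.12) went the other way and did not pass. Of the 4 fibroblast markers tested 3 were below 0, with a median of -0.22. The mean level of the fibroblast list was 6.08 and 5.99 against 5.96 and 5.92. The B cell, T cell, erythroid and mast cell lists had mean levels below background on every array and 0 genes passed. The part of these other cell types in the ribosomal protein differences was not tested.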

How the data were processed

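From each sample 300 ng of total RNA was amplified from random primers and end-labelled with biotin for a 1-colour array, per the labels' protocols. The authors deposited log2 levels per probe set, and per the submitters' processing notes these came from Affymetrix Expression Console 1.1, which ran RMA. RMA removes background, equalises the arrays' distributions and pools probes, which shrinks differences of dim genes. Batches, scan dates and genome build are not given in the sources used here.

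Of 35556 probe sets, 21789 had 1 platform symbol, 1621 several and 12146 none, and the last 2 kinds went unnamed. By gene ID, 21698 of those with 1 symbol matched RefSeq (GRCm38.p6). The probe set with the highest mean stood for a gene. Genes above the 30th percentile on at least 2 arrays were tested (14995).

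The difference, GM-CSF minus M-CSF, came from lmFit and eBayes of limma 3.58.1 (R 4.3.3) without a block, with 2 residual and 4.17 prior degrees of freedom, two-sided p-values and Benjamini-Hochberg adjustment at 0.05. SE is limma's moderated standard error. Precision is limited by the number of arrays, 4. The script was tested on simulated data. Python 3.11.15, pandas 2.3.3 and matplotlib 3.10.9 made the tables and plots.

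Alternatives were no filter, a 50th percentile filter, quantile normalization, median centring, probe set means, trended and robust variances, a replicate block, core proteins only and leaving out each array. The members, gene lists and motifs were chosen with earlier results of these data known. The naming rule takes the 10 largest calls in each direction, the 6 largest differences in each direction, paralogs with their parents, the stalk proteins, Rpsa, members below background and 4 genes per list. Members and genes named beyond it were chosen after their values were seen.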

Additional observations from a re-analysis of the deposited data

How the results depend on the processing

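The count of 24 lower ribosomal protein genes stayed between 20 and 28 under no filter, the stricter filter, quantile normalization, both centrings, probe set means, trended and robust variances and the replicate block, with 0 higher in each. Taking core proteins only uses the same fit, and all 24 are core, so that count could not change. The deposited arrays already had medians between 6.18 and 6.23, so normalizing or centring them again changes little. Centring on the median of the genes tested was added after seeing the data. With one array left out the count ran from 0, without either M-CSF array, to 34, the median difference from -0.47 (without GM-CSF replicate 1) to -0.36, and the counts over all genes from 168 to 1683 higher and from 65 to 1522 lower, against 926 and 679. The cause was not tested. The replicate block, in which shared replicate numbers are treated as pairs, gave 22 lower members and 966 higher and 674 lower genes, and 21 of the 24 calls were kept, all but Rpl6, Rpl22 and Rplp2. Deviations of same-numbered arrays correlated at r = 0.065 over 14995 genes, and the labels give the number no meaning.

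Directions turned for genes with small differences, among members for Rpl9, Rpl29, Rpl41 and Rps27l. Rpl9 was 0.01 and Rpl41 0.0083 without GM-CSF replicate 2, and Rpl41 was 0.02 after quantile normalization. With one array left out the difference ran from -0.22 to 0.29 for Rpl29, from -0.34 to 0.10 for Rps27l, from -0.26 to 0.0044 for Fau, from -0.082 to 0.43 for Mertk, from -0.14 to 0.035 for Pax5, from -0.57 to 0.032 for Polr1a and from -0.18 to 0.22 for Cd8a. Without M-CSF replicate 1 it was -0.019 for Rpl29 and -0.096 for Cd8a, and with arrays centred on the genes tested -0.0075 and -0.021. Mertk and Polr1a passed the test without GM-CSF replicate 2, at the far end of their ranges.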

Other observations

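In 14 members the brightest and dimmest probe sets lay more than 1 log2 unit apart, which allows the difference between groups to be read at 2 signal levels of one gene. The brightest gave the smaller difference in 10 and the dimmest in 4, with medians of -0.43 and -0.49. Many of the 10 were near ties, as Rps25 (-0.513 and -0.514), Rpl24 (-0.44 and -0.46) and Rplp1 (-0.43 and -0.45). The count alone therefore says little about the size of the gaps. Among the 10 the gap was widest in Rpl23, at -0.30 for a mean level of 11.59 and -0.59 for 8.14. Rps2 followed, at -0.31 for 12.53 and -0.44 for 11.27. The order was the other way in Rpsa, at -0.89 for a level of 10.82 and -0.72 for 8.63. It was so too in Rps21, at -0.78 for 8.37 and -0.55 for 6.44, and in Rps12, at -0.89 for 9.98 and -0.65 for 8.96. A probe set may also take signal from a pseudogene copy, and its part was not tested.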
